A study of Mus musculus with 5 samples.

Results

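A germ cell culture was compared with the freshly isolated cell fraction from which such cultures are started. The culture was represented by 1 library, and the fresh cells by 2 libraries of the Thy1+ fraction, so 3 of the series' 5 small RNA libraries enter the comparison. All cells came from the testis of C57BL/6 mice and were sorted with magnetic beads for Thy1.2, which undifferentiated spermatogonia carry on their surface, or stem from cells so sorted. The labels describe the fresh fraction as enriched for spermatogonial stem cells, and the culture as derived from that fraction and grown for about 10 passages. The other 2 libraries, of the Thy1- fraction depleted of stem cells, are given beside the results. For Thy1- the cell type label carries the stem cell name too, and the titles were followed instead. No source used here gives the culture medium, any feeder cells, or the number and age of the donors. The miRNAs described are all 577 names with a count in the culture or in Thy1+, of 593 names counted in the whole series.

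miRNAs are short RNAs cut from a hairpin precursor. Each is loaded into an Argonaute protein and guides it to messenger RNAs whose 3′ ends pair with the miRNA's seed, the bases at positions 2 to 8. miRNAs with the same seed form a family with overlapping targets, and neighbouring hairpins are often cut from the same primary transcript. Both arms of a hairpin can yield a miRNA, and a star marks the arm held to be the minor product in the naming used here. Spermatogonial stem cells renew themselves and give rise to sperm, and miRNAs are needed for spermatogenesis.

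The mature sequences that the comparison turns on are shown first, 5′ to 3′, with the seed in capitals. They are RefSeq sequences (build GRCm38.p6), which matched 421 of the 593 names. The first set holds miRNAs that were higher in the culture.
miR-21: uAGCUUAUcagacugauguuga
miR-221: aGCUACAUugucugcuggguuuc
miR-222: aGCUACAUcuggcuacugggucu
miR-217: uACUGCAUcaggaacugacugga
miR-216a: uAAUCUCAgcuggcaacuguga
miR-206: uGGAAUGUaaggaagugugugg
miR-335-5p: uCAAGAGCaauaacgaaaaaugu
miR-31: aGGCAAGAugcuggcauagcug

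The next set pairs close relatives that share a seed and held different shares of their counts in the fresh cells and the culture. let-7c and let-7f differ at 2 of 22 bases, miR-146a and miR-146b at 2 of 22, miR-148a and miR-152 at 3 of 21, and miR-125a-5p and miR-125b-5p at 7 of 22, all outside the seed.
let-7c: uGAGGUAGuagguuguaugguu
let-7f: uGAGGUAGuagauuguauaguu
miR-146a: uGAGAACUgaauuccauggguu
miR-146b: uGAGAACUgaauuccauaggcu
miR-148a: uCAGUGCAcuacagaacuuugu
miR-152: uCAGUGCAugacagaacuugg
miR-125a-5p: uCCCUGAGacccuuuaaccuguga
miR-125b-5p: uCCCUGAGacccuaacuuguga

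The last set holds miRNAs that were lower in the culture. miR-379, miR-127, miR-434-3p and miR-134 come from the Dlk1-Dio3 region, miR-223 and miR-142-3p are known from blood cells, and miR-20b is given beside its relative miR-20a, which did not pass the test and differs from it at 2 of 23 bases.
miR-379: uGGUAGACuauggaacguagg
miR-127: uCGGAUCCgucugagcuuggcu
miR-434-3p: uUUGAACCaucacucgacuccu
miR-134: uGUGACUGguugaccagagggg
miR-223: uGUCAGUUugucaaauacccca
miR-142-3p: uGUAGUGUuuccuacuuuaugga
miR-293: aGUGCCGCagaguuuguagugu
miR-672: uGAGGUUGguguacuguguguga
miR-20b: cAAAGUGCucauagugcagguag
miR-20a: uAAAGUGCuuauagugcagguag

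Levels are given as CPM, the counts in every 1000000 miRNA counts of that library. The culture library held 5110007 miRNA counts and the Thy1+ libraries 937002 (replicate 1) and 947687 (replicate 2), while the Thy1- libraries held 2548234 and 4909753. A miRNA with no count could therefore still lie at up to 0.587 CPM in the culture (3 counts) and at up to 3.20 or 3.17 CPM in the Thy1+ libraries, for counting error alone. Counts were found for 510 names in the culture and for 534 and 535 in Thy1+. All 3 libraries had counts for 473 names, 67 names had counts in Thy1+ but not in the culture, and 11 in the culture but not in Thy1+.

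The germ cell label of the culture was checked against marker miRNAs. Products of the X-linked testis group, a large set of hairpins on the X chromosome known from male germ cells, held 8.74% of the culture counts, against 18.5% and 20.5% in Thy1+ and 3.45% and 2.68% in Thy1-. The miR-34 and miR-449 group, also known from male germ cells, held 19.7% of the culture counts, 10.7% and 2.39% in Thy1+ and 4.98% and 0.867% in Thy1-. The ranges of the 2 fresh fractions overlapped, so this group did not tell them apart. Of the joint counts of miR-34c, miR-34b-5p, miR-34a and miR-449a, miR-34c held 99.6% in the culture, and 98.6% and 98.1% in Thy1+. The share of miR-449a was lower in the culture, at 0.0200% against 0.654% and 0.637% in Thy1+. By CPM, 4 of the 6 tested products of the group lay above both Thy1+ libraries in the culture, and 2 below both. The 6 products taken as white blood cell markers (from the hairpins of miR-223, miR-142, miR-155 and miR-150) held 0.0937% in the culture, 1.49% and 2.66% in Thy1+ and 0.202% and 0.135% in Thy1-, and miR-150* had no count in the culture. The 11 mesenchymal products (of miR-140, miR-143, miR-145, miR-199a, miR-199b and miR-214) held 6.74%, against 3.08% and 4.15% in Thy1+ and 5.03% and 3.69% in Thy1-, and none of them was at 0 in the culture. The red blood cell products held 0.00125%, against 0.0252% and 0.0179%. White blood cell markers thus move with the comparison itself, and their part in the other differences was not tested. In bulk RNA, fewer cells of a type and less of a miRNA per cell cannot be told apart.

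With edgeR's quasi-likelihood test and Benjamini-Hochberg adjustment over the 470 miRNAs tested, 42 (8.94%) were higher and 63 (13.4%) lower in the culture, at an adjusted p under 0.05. The single culture library was assumed to vary as the fresh groups do. All 105 lay outside the range of the 2 Thy1+ libraries by CPM. Of all 470, however, 374 (79.6%) lay below both Thy1+ libraries, 59 (12.6%) above both and 37 between them. CPM values are shares of a whole, so a larger share for some miRNAs leaves less for the rest. The fold changes below use TMM scaling, which sets the bulk of miRNAs level. Their median was -0.09 on the log2 scale over all 470, against -1.73 when libraries were scaled to their totals, a shift of -1.64. With library totals, 9 miRNAs (1.91%) were higher and 164 (34.9%) lower. Those 9 were also among the 42, and all 63 lower ones were among the 164.

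The calls rested on having both fresh libraries. Without Thy1+ replicate 1 the edgeR test passed 0 of 469 miRNAs (30.92% at an unadjusted p under 0.05), and without replicate 2 it passed 0 of 461 (26.03% at an unadjusted p under 0.05). In both cases that group was left with 1 library. Without Thy1- replicate 1, 25 of the 42 higher and 42 of the 63 lower miRNAs were still called. Without Thy1- replicate 2, 41 and 63 were. Among 10 other ways of processing the counts, 9 of the higher and 38 of the lower miRNAs were called in every one.

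**Figure D1:**
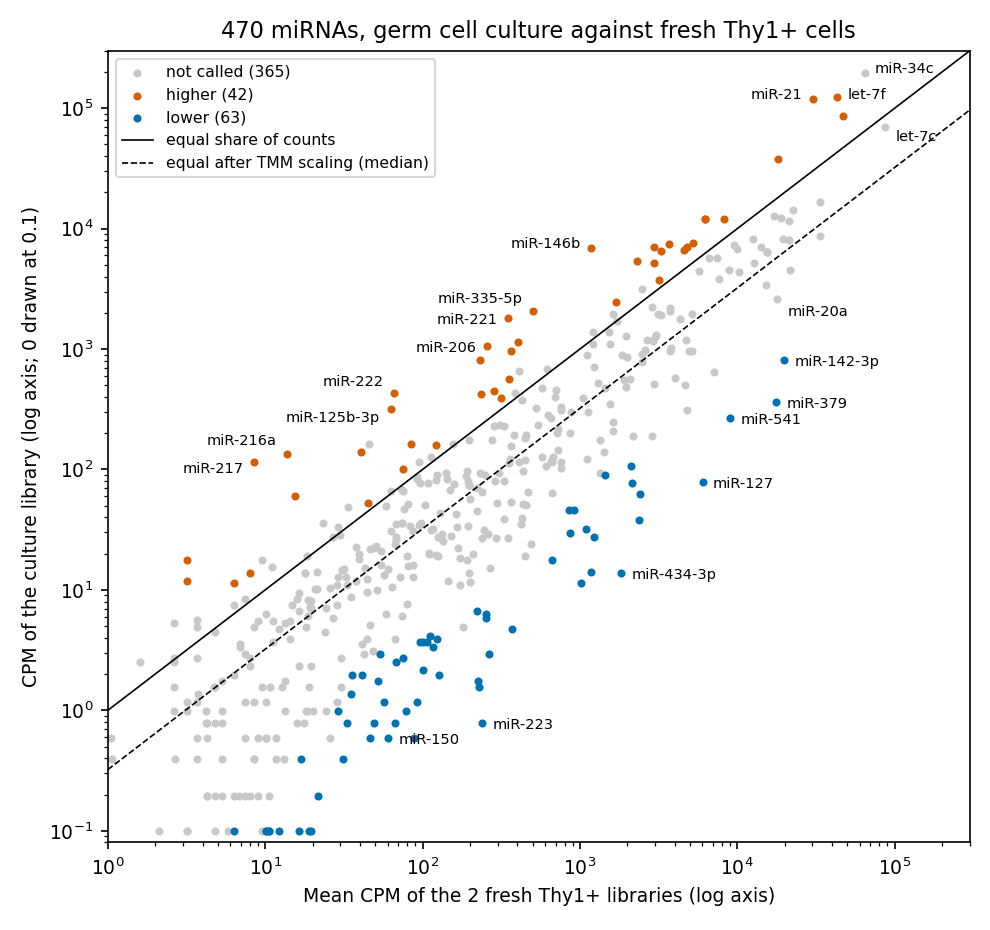
Level of each of 470 miRNAs in the culture library (vertical log axis, CPM, with 0 drawn at 0.1) against the mean of the 2 fresh Thy1+ libraries (horizontal log axis, CPM); each point is a miRNA, orange if called higher (42), blue if called lower (63). Most points lie below the solid line of equal share and spread around the dashed line, which is shifted down by 1.64 log2 units and marks equality under TMM scaling.

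The culture library was dominated by miR-34c, let-7f and miR-21. miR-34c, a target of p53 that is abundant in the testis, held 19.6% of the culture counts, let-7f 12.4% and miR-21 11.9%. Together they made up 43.8% of the culture counts, against 17.6% and 9.90% in the Thy1+ libraries. The 10 most abundant miRNAs of each library held 68.9% of the counts in the culture (95% Clopper-Pearson interval 68.88% to 68.96%), 45.6% and 37.9% in Thy1+ and 58.4% and 60.3% in Thy1-. The order of abundance also differed. let-7c was in place 1 in Thy1+ and 5 in the culture, miR-21 in place 7 in Thy1+ and 3 in the culture, and miR-142-3p was in place 81 in the culture and 12 in Thy1+.

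miR-34c, the most abundant miRNA of the culture, did not pass the test. It stood at 195532 CPM in the culture and at 105485 and 23388 CPM in the Thy1+ libraries. By ratio, the fresh libraries thus differed more from each other than the culture did from the nearer of them. Its log2 fold change was 3.17 (SE 1.02, edgeR adjusted p = 0.0531). Its minor arm, miR-34c*, at 140.9 CPM against 65.1 and 15.8, was called (3.38, SE 0.86, edgeR adjusted p = 0.0281), but not without Thy1- replicate 1. The hairpin lies opposite an intron of Btg4. Of the 6 tested products of the miR-34 and miR-449 group, edgeR called 1 higher, beside 8.94% of all miRNAs. The number was 3 by DESeq2, 1 by limma-voom, 0 with library totals, and 4 with the culture and Thy1+ libraries only.

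miR-21, abundant in many dividing and stressed cells, was, after let-7f, the most abundant miRNA called higher in the culture. It stood at 118931 CPM there. The Thy1+ libraries held 27553 and 32738 CPM (30145 ± 3667, SD, n = 2), and Thy1- 11709 and 11526. The culture lay above all 4 fresh libraries. The log2 fold change was 3.64 (SE 0.52, edgeR adjusted p = 0.0105), and 1.98 with library totals. The hairpin (GRCm38 chr11:86584067-86584158, minus strand) lies in an exon of Vmp1. Its other arm, miR-21*, was also higher (2.07, SE 0.62, edgeR adjusted p = 0.0428), but not without Thy1- replicate 1.

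miR-221 and miR-222, neighbours on the X chromosome that share a seed and are known for repressing cell cycle inhibitors and the receptor Kit, were both higher. miR-221 was at 1803 CPM in the culture, with 264 and 438 in Thy1+ and 144.0 and 135.6 in Thy1- (log2 4.04, SE 0.61, edgeR adjusted p = 0.0105). miR-222 was at 435 CPM, against 80.0 and 51.7 in Thy1+ and 14.1 and 22.4 in Thy1- (log2 4.35, SE 0.73, edgeR adjusted p = 0.0105). In each case the culture was above every fresh library. The hairpins (chrX:19146294-19146388 and chrX:19146893-19146971, minus strand) overlapped no other annotated gene.

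The largest rises relative to the bulk were those of miR-217 and miR-216a, known from the pancreas. miR-217 had 115 CPM in the culture, and Thy1+ held 8.54 and 8.44 CPM of it (log2 5.40, SE 0.64, edgeR adjusted p = 0.00713). miR-216a had 135.6 CPM, against 20.3 and 7.39 (log2 4.90, SE 0.78, edgeR adjusted p = 0.0105). Their hairpins (chr11:28757012-28757083 for miR-216a and chr11:28763728-28763835 for miR-217, plus strand) lie in introns of the same long noncoding RNA, Gm12082. In the liver and pancreas list, which held 5 tested products, these 2 and the liver's miR-122, at 11.4 CPM in the culture, were called. That made 3 higher, beside 8.94% of all miRNAs. With library totals, DESeq2 or limma-voom, 2 were higher. The pancreatic miR-375 was at 11.7 CPM against 293.5 and 108.7, and did not pass (log2 -2.50, SE 1.63, edgeR adjusted p = 0.296).

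miR-146b, miR-125b-3p and miR-215 were also among the 9 that were higher under both scalings, as was let-7f, described with its family below. miR-146b, a regulator of innate immune signalling, reached 6885 CPM against 1362 and 998 in Thy1+ (log2 4.17, SE 0.64, edgeR adjusted p = 0.0105). Its hairpin (chr19:46342762-46342870, plus strand) lies in an intron of Mfsd13a. miR-125b-3p, the lesser arm of a miR-125b hairpin, was at 316 CPM against 56.6 and 68.6 (log2 3.999, SE 0.67, edgeR adjusted p = 0.0105). It held 4.08% of the joint counts of miR-125b-5p and miR-125b-3p in the culture, and 1.36% and 2.07% in Thy1+. With only reads without mismatches these shares fell to 1.82% in the culture, and 0.793% and 1.17% in Thy1+. miR-215 was low throughout, with 17.6 CPM against 4.27 and 2.11.

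Among those higher under TMM scaling but not with library totals were miR-335-5p, miR-206 and miR-31. Each was above both Thy1+ libraries by CPM as well. miR-335-5p, from an intron of the imprinted gene Mest, was at 2064 CPM against 271 and 732 (log2 3.75, SE 0.67; 2.04 with library totals, edgeR adjusted p = 0.0576). miR-206, known as a skeletal muscle miRNA, was at 1062 CPM against 149.4 and 361.9 (log2 3.76, SE 0.71; 2.05 with library totals, edgeR adjusted p = 0.0723). miR-31 was at 819 CPM against 128.1 and 338 (log2 3.52, SE 0.70; 1.81 with library totals, edgeR adjusted p = 0.0985), and its other arm, miR-31*, was called too.

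**Figure D2:**
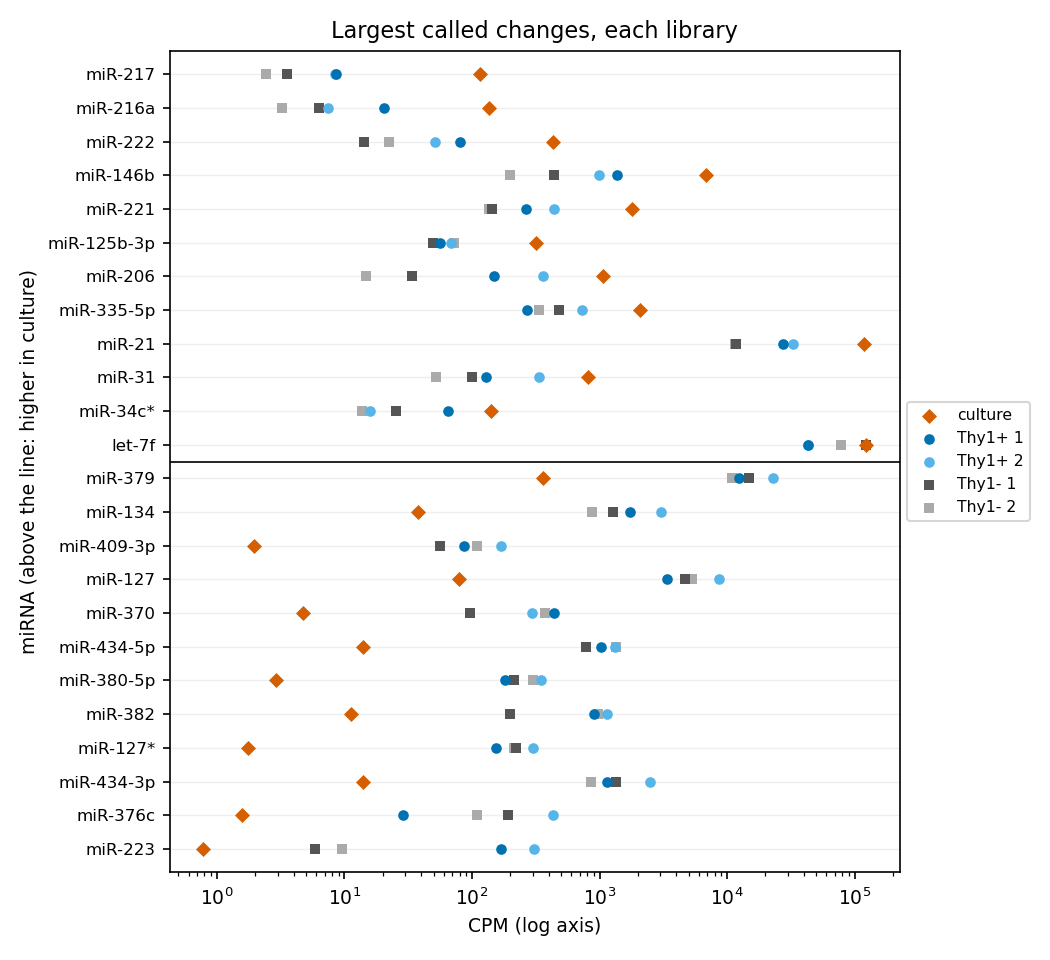
CPM (horizontal log axis) in each of the 5 libraries for the 12 miRNAs with the largest called rise and the 12 with the largest called fall among those reaching 100 CPM in the higher group; orange diamonds are the culture, blue circles Thy1+ and grey squares Thy1-. Rows were chosen among miRNAs whose culture CPM lay outside the Thy1+ range, so the culture stands beyond both Thy1+ circles in all 24 rows. For let-7f the culture coincides with a Thy1- library at about the same CPM.

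Groups of close relatives differed in composition, a measure within 1 library that does not depend on scaling. These shares are described without a test, since the culture has 1 library. The plainest case was the seed shared by miR-1 and miR-206, known from heart and skeletal muscle. miR-206 made up 91.9% of their joint counts in the culture (95% Clopper-Pearson interval 91.1% to 92.6%), against 9.81% (8.32% to 11.5%) and 21.6% (19.6% to 23.8%) in Thy1+ and 3.27% and 4.73% in Thy1-. The culture was thus the only one of the 5 libraries in which miR-206 was the larger part. miR-1 itself had 93.9 CPM in the culture, well under the 1374 and 1311 of Thy1+, and did not pass (log2 -2.19, SE 0.83, edgeR adjusted p = 0.0823).

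miR-152 and miR-148a differed in the same manner. miR-152, from an intron of Copz2, made up 50.3% of the miR-148 and miR-152 counts in the culture (49.8% to 50.7%), but 13.5% and 15.7% in Thy1+ and 14.2% and 14.7% in Thy1-. The 4 fresh libraries lay close together, and the culture stood apart. miR-152 stood at 5152 CPM there and at 2322 and 3575 CPM in Thy1+ (log2 2.48, SE 0.57, edgeR adjusted p = 0.0212). miR-148a was at 3386 CPM against 13152 and 17477 (log2 -0.51, SE 0.58, edgeR adjusted p = 0.574), which did not pass under TMM scaling but did with library totals (-2.18).

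In the miR-146 family, miR-146b made up 77.8% of the counts in the culture (77.4% to 78.2%), against 25.1% and 13.9% in Thy1+. Here the Thy1- libraries were near the culture, at 64.8% and 74.5%. miR-146a did not pass, with 1962 CPM in the culture, 4070 and 6192 in Thy1+ (log2 0.29, SE 0.71, edgeR adjusted p = 0.801, and -1.39 with library totals). The 2 differ only near their 3′ end. Counting only reads without mismatches gave 77.6% in the culture and 24.98% and 13.79% in Thy1+.

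miR-125b-5p made up 77.2% of the counts of miR-125a-5p and miR-125b-5p in the culture, against 43.5% and 60.3% in Thy1+ and 39.0% and 34.3% in Thy1-. It was at 7441 CPM against 4116 and 3245 (log2 2.65, SE 0.64, edgeR adjusted p = 0.0240; 1.02 with library totals). The arms of the miR-335 hairpin also differed in balance. The 5p arm held 94.5% of the arm counts in the culture and 30.5% and 72.2% in Thy1+, but it also held 92.2% and 87.2% in Thy1-. The Thy1+ replicates were farther apart from each other here than replicate 2 was from the culture.

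**Figure D3:**
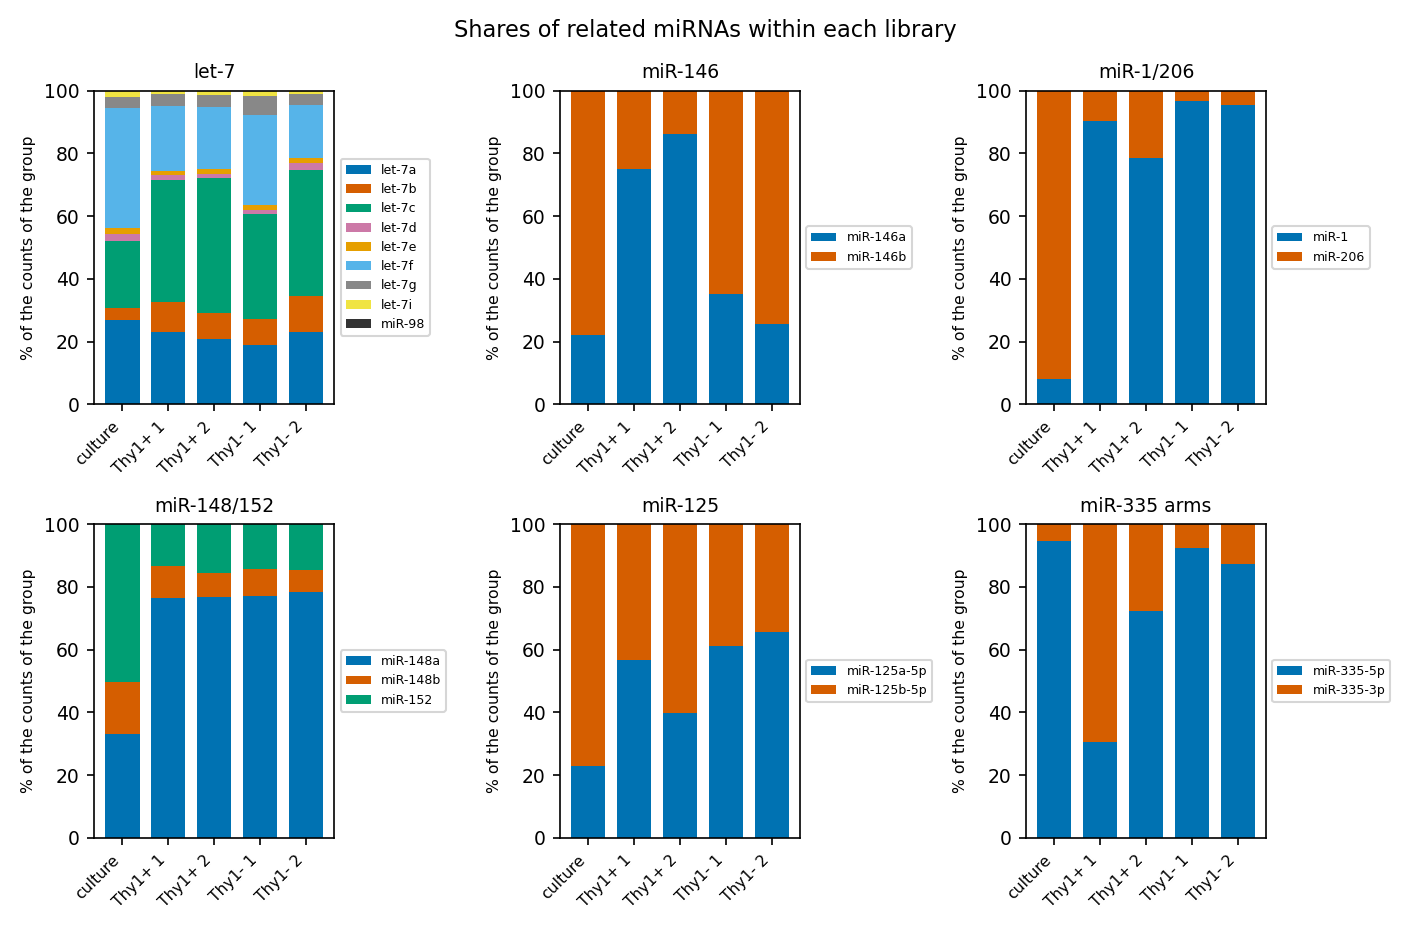
Share of the counts of 6 groups of related miRNAs held by each member (vertical axis, percent of the group's counts, from 0) in the culture, the 2 Thy1+ and the 2 Thy1- libraries. In the culture miR-206 holds 91.9% of its group and miR-152 50.3%, above all 4 fresh libraries, while the miR-146 and miR-335 shares of the culture resemble Thy1- more than Thy1+.

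let-7, a family known for restraining pluripotency genes and promoting differentiation, made up more of the culture (32.5% of counts) than of Thy1+ (21.1% and 21.6%), and less than of Thy1- (42.8% and 46.3%). Of 17 tested products of let-7 and miR-98, 8 were higher, beside 8.94% of all miRNAs, and 9 did not pass, with a median log2 fold change of 2.19 beside -0.09 over all miRNAs. With library totals, 1 was higher and 1 lower, and the median was 0.54. let-7f was higher under both scalings, with 123548 CPM in the culture, 43000 and 42916 in Thy1+ and 122582 and 78438 in Thy1- (log2 3.17, SE 0.52, edgeR adjusted p = 0.0105). let-7a had 86985 CPM against 48714 and 45146 (log2 2.54, SE 0.54, edgeR adjusted p = 0.0170; 0.89 with library totals). let-7c, with 70086 CPM against 81791 and 92869, was below both fresh libraries by CPM and did not pass (log2 1.34, SE 0.53, edgeR adjusted p = 0.0953; -0.32 with library totals).

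The balance inside the family differed as well. let-7f held 20.4% and 19.9% of the family's counts in Thy1+ and 38.0% in the culture, and let-7c went from 38.9% and 43.0% to 21.6%. In Thy1-, let-7f held 28.6% and 17.0% and let-7c 33.2% and 40.2%, so the culture lay outside all 4 fresh libraries for both. With reads free of mismatches, let-7f held 38.5% in the culture and 20.7% and 20.2% in Thy1+.

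Other lists held calls that were made under TMM scaling but not with library totals. In the mesenchymal list 5 of 11 products were higher under TMM scaling, beside 8.94% of all miRNAs, and 6 did not pass. These 5 calls were lost with library totals, and the median moved from 1.82 to 0.16. miR-143, known from smooth muscle and fibroblasts, was at 37950 CPM against 17369 and 18967 (log2 2.72, SE 0.59, edgeR adjusted p = 0.0185). miR-199a-3p, which shares its sequence and its counts with miR-199b, was at 12096 CPM against 4205 and 8183 (log2 2.66, SE 0.58, edgeR adjusted p = 0.0185), so these 2 of the 5 calls are 1 measurement. In the miR-23/27/24 group, cut from a pair of clusters, 4 of 9 were higher, beside 8.94% of all miRNAs, and 5 did not pass. These included miR-23a at 1148 CPM against 391 and 418 (log2 3.16, SE 0.59, edgeR adjusted p = 0.0105) and miR-24 at 7532 against 6855 and 3570, the latter not called without Thy1- replicate 1. These 4 calls were lost with library totals too, where edgeR gave miR-23a an adjusted p of 0.0924 and called 1 other product lower.

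The Dlk1-Dio3 region on chromosome 12 is an imprinted domain whose maternal copy gives a long noncoding transcript packed with miRNA hairpins. Of its 59 tested products 40 were lower in the culture and 19 did not pass, against 13.4% lower over all miRNAs. With library totals 54 were lower, beside 34.9% of all miRNAs. Every product had a negative log2 fold change, from -8.06 to -1.16, with a median of -3.93. By CPM the culture lay below both Thy1+ libraries for 58 of the 59, beside 79.6% of all miRNAs. The products together held 0.102% of the culture counts (0.0990% to 0.105%), 3.21% and 6.16% of the Thy1+ counts and 3.27% and 3.79% of the Thy1- counts. The fresh fractions were thus near each other, and the culture was below all 4 libraries.

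The most abundant product, miR-379, had 362.6 CPM in the culture. It had 12456 and 22876 CPM in Thy1+, with Thy1- at 14796 and 10848 (log2 -3.92, SE 0.71, edgeR adjusted p = 0.0105). miR-541 was at 267 CPM against 6301 and 11792 (log2 -3.39, SE 0.85, edgeR adjusted p = 0.0279). miR-127, which lies opposite the imprinted gene Rtl1, was at 79.1 CPM against 3388 and 8664 (log2 -4.54, SE 0.84, edgeR adjusted p = 0.0105). Each of these 3 was lower than in every fresh library. miR-434-3p, also opposite Rtl1, was at 13.9 CPM against 1138 and 2498 (log2 -5.33, SE 0.88, edgeR adjusted p = 0.0105). miR-134 was at 38.0 CPM against 1748 and 3030 (log2 -4.29, SE 0.78, edgeR adjusted p = 0.0105). miR-382, at 11.4 CPM against 903 and 1141, and miR-370, at 4.70 against 442 and 296.5, were lower too. miR-376c was lower as well, but its fresh libraries were far apart, at 28.8 and 428 CPM, and it was not called without Thy1- replicate 1.

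The region's products differed from each other in how far the culture lay below the fresh cells, but not in direction. The culture had no count for 12 of the 59, of which miR-539 had the most counts in Thy1+, 23 and 14. With these at the limit that 0 counts allow, the median was -3.39. The hairpins fell into 4 runs with gaps of at most 10000 bases between neighbours, which span chr12:109563692-109743795 together. From the first to the last run, 2 of 3, 8 of 12, 2 of 3 and 28 of 40 of the tested products placed there were lower. Counts by chromosome cover the 343 tested names placed on 1 hairpin. On chromosome 12 as a whole 41 of 65 such products were lower. Of these 65, 58 were products of the region itself, so this count largely repeats that of the region. The X chromosome, which also holds many hairpins, had 5 higher and 5 lower of 63, beside 8.94% higher and 13.4% lower over all miRNAs.

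**Figure D4:**
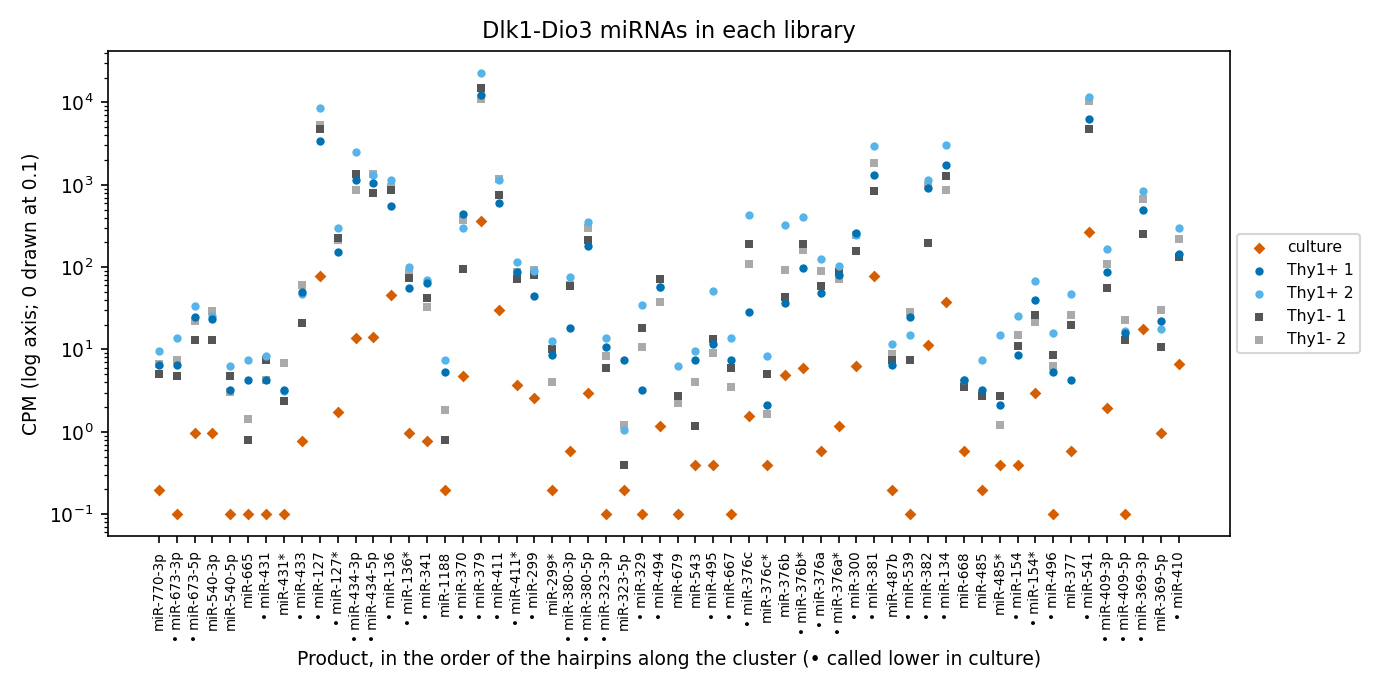
CPM (vertical log axis, 0 drawn at 0.1) of 58 Dlk1-Dio3 products in each of the 5 libraries, ordered along the horizontal axis as the hairpins lie in the cluster; orange diamonds are the culture, blue circles Thy1+ and grey squares Thy1-, and a dot before the name marks a product called lower. The culture diamonds lie below both Thy1+ circles for all products drawn but miR-679, which is at 0 in the culture and in Thy1+ replicate 1, with miR-379 at 362.6 CPM and miR-541 at 267 CPM the highest of them.

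Of the 6 tested white blood cell products, 4 were lower, beside 13.4% of all miRNAs, and 2 did not pass. Their median log2 fold change was -3.95, or -2.75 with miR-150*, which had no count in the culture, at the limit that 0 counts allow. miR-142-3p, known from all blood lineages, was at 818 CPM in the culture, 14318 and 25272 in Thy1+ and 1954 and 1294 in Thy1- (log2 -2.91, SE 0.68, edgeR adjusted p = 0.0224). miR-223, known from granulocytes and monocytes, had 4 counts, 0.783 CPM, in the culture. The Thy1+ libraries held 170 and 309 CPM, and Thy1- 5.89 and 9.57 (log2 -6.52, SE 1.02, edgeR adjusted p = 0.0105). The other 2 lower products were the arms of miR-150, known from lymphocytes. miR-155, from activated lymphocytes and macrophages, did not pass, with 92.8 CPM in the culture, 132 and 151 in Thy1+ and, lower, 9.81 and 6.72 in Thy1- (log2 1.05, SE 0.59, edgeR adjusted p = 0.223; -0.61 with library totals). Of 3 red blood cell products, miR-451 was lower, at 3.91 CPM against 171 and 74.9, though not without Thy1- replicate 1.

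Some products of other clusters were lower in the culture. In the list of miRNAs known from embryonic stem cells, the 12 tested products all came from hairpins miR-290 to miR-295 on chromosome 7. Of these, 4 were called lower, beside 13.4% of all miRNAs, and 8 did not pass. The median log2 fold change was -2.29. With library totals 9 were lower, beside 34.9% of all miRNAs, and with RLE scaling 2 were. All 12 lay below both Thy1+ libraries by CPM, as did 79.6% of all miRNAs. The list held 0.0977% of the culture counts, 0.782% and 1.82% of the Thy1+ counts, and 0.118% and 0.0719% of the Thy1- counts. miR-293 was at 107.2 CPM against 1599 and 2610 (log2 -2.61, SE 0.73, edgeR adjusted p = 0.0337). miR-291a-3p was at 90.4 CPM against 1291 and 1602 (log2 -2.34, SE 0.72, edgeR adjusted p = 0.0467). miR-295, the most abundant, was at 309 CPM against 2189 and 7456 and did not pass (edgeR adjusted p = 0.0729).

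Paralogous clusters of the miR-17 type, known for promoting proliferation, differed in their counts of calls. Of 4 tested products listed for the cluster on the X chromosome (miR-106a to miR-363), 3 were called lower, beside 13.4% of all miRNAs. miR-20b was at 46.0 CPM against 963 and 864 (log2 -2.67, SE 0.79, edgeR adjusted p = 0.0428), miR-18b at 2.15 against 84.3 and 116, and miR-363 at 3.72 against 77.9 and 115. No product listed for the autosomal miR-17-92 and miR-106b-25 clusters passed edgeR (0 of 16, with 4 at an unadjusted p under 0.05, 2 by DESeq2 and 0 by limma-voom). That list includes miR-92a* (log2 -2.37), although its matched hairpin lies in the X chromosome cluster. By placement, 3 of 5 tested products of the X chromosome cluster were lower. With library totals 14 of the 16 were lower, beside 34.9% of all miRNAs. All 16 lay below both Thy1+ libraries by CPM, as did 79.6% of all miRNAs. miR-20a, for example, was at 2607 CPM against 19554 and 16078 (log2 -1.14, SE 0.62, edgeR adjusted p = 0.208; -2.77 with library totals). Within the counts of miR-20a and miR-20b, miR-20b held 1.73% in the culture, 4.69% and 5.10% in Thy1+ and 0.389% and 0.513% in Thy1-. The difference between the clusters was not itself tested.

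Of 8 tested products of the miR-200 family, known from epithelia, 3 were lower, beside 13.4% of all miRNAs, all from the cluster on chromosome 4 (156053905 to 156055750). miR-429 was at 3.33 CPM against 153.7 and 78.1, miR-200a at 2.74 against 102 and 48.5, and miR-200b at 3.72 against 120 and 92.9. None of these 3 was called without Thy1- replicate 1. miR-672, from an intron of Nexmif on the X chromosome, was at 27.6 CPM against 1169 and 1285 in Thy1+ and 2095 and 2439 in Thy1- (log2 -3.82, SE 0.75, edgeR adjusted p = 0.0113).

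In 3 further lists no product passed under TMM scaling, and the sign of the median depended on the scaling. With library totals edgeR called 2 X-linked, 1 miR-183 cluster and 3 Sfmbt2 products lower, beside 34.9% of all miRNAs. In the X-linked testis group edgeR passed 0 of 29 (2 at an unadjusted p under 0.05, 0 by DESeq2 and 0 by limma-voom). The median was 0.39 with TMM scaling and -1.28 with library totals. miR-741 was at 14316 CPM against 19048 and 26146, and miR-880 at 8749 against 46185 and 20989. In the miR-183 cluster, known from sensory organs, edgeR, DESeq2 and limma-voom each passed 0 of 4 (0 at an unadjusted p under 0.05). miR-182 was at 16631 CPM against 34213 and 33098 (log2 0.63, SE 0.63, edgeR adjusted p = 0.519; -1.02 with library totals), and in Thy1- at 2897 and 1026. The culture was thus below Thy1+ and above Thy1- for miR-182. In the Sfmbt2 intron, a large set of related miRNAs, edgeR passed 0 of 37 (1 at an unadjusted p under 0.05, 0 by DESeq2 and 0 by limma-voom), with a median of 0.24, which was -1.43 with library totals.

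**Figure D5:**
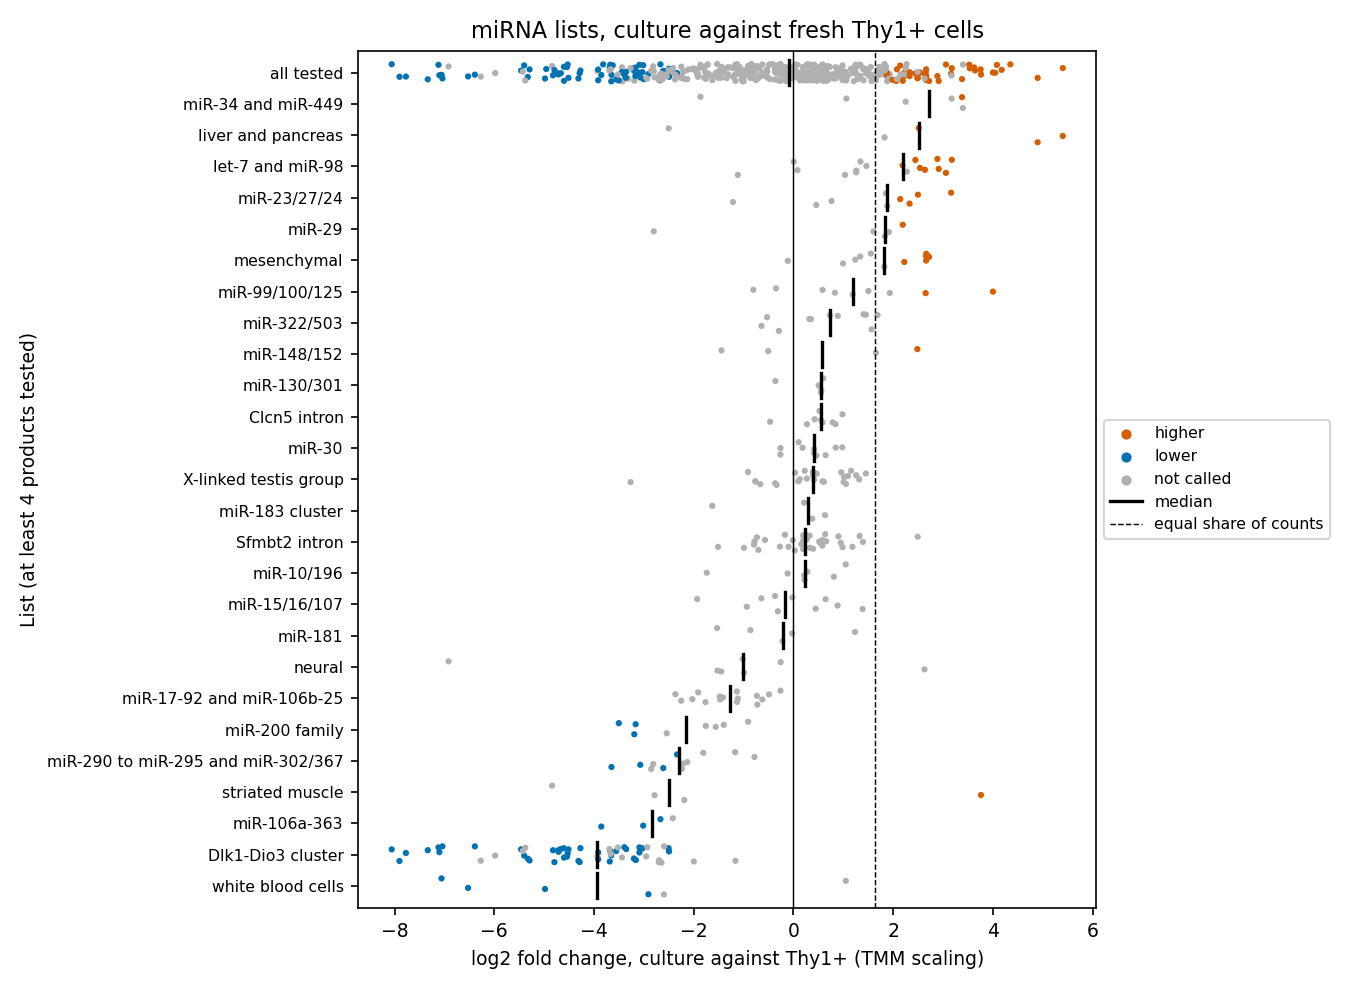
log2 fold change of the culture against Thy1+ under TMM scaling (horizontal axis) for each product of the lists with at least 4 tested products, with all 470 tested miRNAs in the top row; points are miRNAs (orange called higher, blue called lower, grey not called), black bars are medians, and the dashed line marks an equal share of counts. The Dlk1-Dio3 and white blood cell fitted medians are -3.93 and -3.95 (-3.39 and -2.75 with products at 0 counts in the culture set to their limit), and the let-7 median of 2.19 lies to the right of the dashed line at 1.64.

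Counts were also summed over miRNAs with the same seed, which does not depend on how reads are divided among relatives. Of 356 seed families tested, 39 (11.0%) were higher and 50 (14.0%) lower in the culture by edgeR. With library totals 5 were higher and 131 lower. Without Thy1- replicate 2, as without either Thy1+ library, no family passed edgeR (36.9% of families at an unadjusted p under 0.05, and 30.7% and 24.2% without Thy1+ replicate 1 and 2). The let-7 seed, GAGGUAG, shared by 9 names, was higher, with 324905 CPM against 210507 and 215977 (log2 2.55, SE 0.48, edgeR adjusted p = 0.0138). The seed shared by miR-221 and miR-222, GCUACAU, was at 2238 CPM against 344 and 490 (log2 4.40, SE 0.60, edgeR adjusted p = 0.00827). The miR-146 seed, GAGAACU, was higher as a sum, at 8847 CPM against 5432 and 7190 (log2 2.45, SE 0.63, edgeR adjusted p = 0.0326; 0.49 with library totals). The miR-34 and miR-449 seed, GGCAGUG, passed narrowly, at 196306 CPM against 106954 and 23840 (log2 3.41, SE 1.06, edgeR adjusted p = 0.0493).

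Calls were also compared between products of the same hairpin and of neighbouring hairpins. Over all 470 miRNAs, 22.3% were called in either direction. Both arms were tested for 135 hairpins, and in 38 at least 1 arm was called. Some of these hairpins share the counts of 1 arm, as miR-199a and miR-199b do, and miR-465a, miR-465b and miR-465c. The 135 are thus not all separate measurements. Both arms were higher in 4 hairpins and both lower in 10, and in no hairpin was one arm called higher and the other lower. Of the hairpins with both arms lower, all but miR-150 came from the Dlk1-Dio3 region, so these largely repeat that region. The fitted values, called or not, had the same sign in 108 of the 135 hairpins, and differed by more than 2 log2 units in 22. Of 32 clusters of hairpins spaced by at most 10000 bases, 18 held a call and 10 held at least 2. The runs of the Dlk1-Dio3 region were all among these 10. None of the 32 clusters held calls in both directions.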

How the data were processed

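Small RNA of 5 libraries was sequenced, and the authors deposited a table per library of tags, their counts, and their placements on miRNAs of miRBase release 12.0, per the file headers and names. Placements held up to 2 mismatches, and tags were 15 to 25 bases long. DESeq is named, without a version, in the submitters' processing notes; no source used here gives the aligner or the genome build. Each tag was kept at its lowest number of mismatches, with tied names sharing its counts equally, and sums were rounded for testing. Tied tags held 2.86% to 7.36% of counts. Counts were fitted with edgeR 4.0.16 in R 4.3.3 (TMM scaling, filterByExpr, quasi-likelihood test) over all 5 libraries, with Benjamini-Hochberg adjustment. The biological coefficient of variation was 42.9%. The labels do not say whether the 2 fresh libraries of a group came from separate animals. The p-values then rest on a spread that may be technical. SE is the absolute log2 fold change divided by the square root of F. Intervals are 95% Clopper-Pearson and, like the limit of 3 counts, cover counting error only. The test was tested on simulated counts with known changes in the culture library. Of the changes tested, it recovered 57% of the 4-fold and 97% of the 16-fold ones, and 1 of its 155 calls was false. A miRNA that did not pass may thus still differ by 4-fold. Apart from the known changes, the simulated libraries had the same expected shares. Alternatives were RLE scaling, library totals, other filters, DESeq2 1.42.0, limma-voom (limma 3.58.1), fewer libraries, tag rules and a replicate block. Python 3.11.15, pandas 2.3.3, SciPy 1.17.1 and matplotlib 3.10.9 made the tables and plots. Hairpin positions are RefSeq's and host genes GENCODE's, both on GRCm38.

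Named miRNAs were the 10 most abundant in the culture and in Thy1+, and up to 12 called per direction by size of change. The latter had 100 CPM or more in the group where they were higher, and a culture CPM outside the Thy1+ range. Also named were up to 4 of the most abundant tested products of each list. Members of up to 6 called seed families per direction with at least 1000 CPM were named too. Outside that rule, miR-150, miR-150*, miR-215, miR-329, miR-409-5p and miR-539 were named after their values were seen. The comparison, lists and rule were chosen with earlier results of these data known.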

Additional observations from a re-analysis of the deposited data

How the results depend on the processing

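The number of calls followed the scaling and the libraries. With library totals 9 miRNAs were higher and 164 lower, and 5 and 131 seed families. With totals computed without miR-34c, let-7f and miR-21, an alternative chosen after seeing the data, these were 16 and 109 miRNAs and 12 and 88 families. Without a filter on low counts 64 miRNAs were higher, and with at least 10 CPM 23 families were. Leaving out 1 fresh library in turn gave 0 to 53 higher and 0 to 75 lower miRNAs, and 0 to 40 higher and 0 to 89 lower families; the cause was not tested. With Thy1+ and Thy1- replicate numbers as a replicate block, 36 miRNAs were higher and 52 lower, and 29 and 39 families. Same-numbered libraries did not deviate together (r = -0.0855 across 470 miRNAs), so the numbers were not read as pairs. Of the 470 miRNAs tested, 161 had opposite signs under TMM scaling and library totals, and 0 of these 161 were called under TMM scaling. Among those whose values are given above, let-7c with library totals was at -0.32, miR-125a-5p at -0.76, miR-146a at -1.39, miR-155 at -0.61, miR-182 at -1.02 and miR-741 at -0.66 (log2). With totals without the 3 most abundant, miR-125a-5p was at -0.18, miR-146a at -0.76, miR-182 at -0.40 and miR-741 at -0.033. With the replicate block miR-146a was at -0.063. Leaving out 1 library gave miR-125a-5p -0.081 to 1.80, miR-146a -0.00248 to 0.29 and miR-880 -1.20 to 0.50. Depth limits the low end: 19 of the 63 lower miRNAs had 4 or fewer counts in the culture.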

Other observations

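miR-29a, which represses collagen and other matrix genes, had 7029 CPM in the culture. The Thy1+ libraries held 5524 and 4001 CPM of it, and Thy1- 622 and 385. The Thy1+ cells and the culture were thus close to each other by CPM, and both were far above Thy1-. Its log2 fold change against Thy1+ was 2.19 with TMM scaling, and the call was lost without Thy1- replicate 1. miR-27a held 40.3% of the counts of the miR-27 seed pair in the culture, 19.5% and 31.6% in Thy1+ and 9.86% and 8.11% in Thy1-. miR-126, known from endothelium, held 0.0562% of the culture counts over both arms, against 0.192% and 0.261% in Thy1+. The neural list held 0.0204%, against 0.1001% and 0.155%. Under TMM scaling edgeR called 0 of the 2 miR-126 arms (median log2 -0.25). It called 0 of the 7 tested neural products (median log2 -1.02, from -6.92 to 2.63). With library totals 0 and 3 were lower, beside 34.9% of all miRNAs. By CPM, 79.6% of all miRNAs lay below both Thy1+ libraries.

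Among names with counts in Thy1+ and none in the culture, those with the most counts were products of the Dlk1-Dio3 region. miR-539 had 23 and 14 counts, miR-329 had 3 and 33, and miR-409-5p had 15 and 16. At 0 of 5110007 counts, each may still have stood at up to 0.587 CPM in the culture.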
